A study of Drosophila melanogaster with 3 samples.

Results

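The cyclin and mitotic kinase genes, 10 core regulators of the cell division cycle, were examined for binding of the nuclear coactivator Mastermind (Mam) in Drosophila embryos. They were 4 cyclin genes (CycA, CycB, CycD and CycE), the kinase gene Cdk1, its activating phosphatase gene stg, the mitotic kinase genes polo, aurA and aurB, and the inhibitor gene dap. The genes were chosen by name for their function, with earlier results of these data known. All 10 were found by symbol among the 13968 protein-coding genes annotated on the main chromosome arms. Chromatin immunoprecipitation followed by sequencing (ChIP-seq) had been performed with an antibody that the sample descriptions give as anti-GFP, and an antibody label as mam, on whole embryos aged 0 to 24 hours, males and females together, from the Drosophila melanogaster strain mam-MiMIC-GFP. In that line an eGFP exon placed in an intron of mam makes a Mam-GFP fusion, and all 3 samples, biological replicates 1 to 3, carry it. The labels name no treatment and the samples form 1 group, so the design holds no contrast between conditions. A possible control named in the labels was not analysed here, and no level without the tag can be set beside the values.

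Cyclins are the regulatory subunits of cyclin-dependent kinases, whose activity drives entry into DNA replication and into mitosis. Cdc25 phosphatases such as String, the product of stg, switch Cdk1 on, Polo and the Aurora kinases direct centrosomes, spindle and cytokinesis, and Dacapo, the product of dap, holds the CycE-bound kinase in check. Early fly embryos divide on maternally supplied products, and later divisions follow zygotic transcription of stg. In the Notch pathway, Mastermind binds to the cleaved receptor once that has docked on its DNA-bound partner Su(H), and the complex activates transcription. A whole-embryo collection mixes stages and tissues, so stronger binding per cell and binding in more cells cannot be told apart.

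Sequence around the summits, the highest points of the peaks, is shown for 4 genes with a reproducible peak and for CycA, whose summit lay just below the threshold of the reproducible list. Each runs 5′ to 3′ on the strand of its gene, was read from the RefSeq copy of the Release 6 assembly (dm6), and has the summit at base 101. The aurA, Cdk1 and CycE windows are shown because they hold the motif found at most of the summits, and the CycD window because it does not. Capitals mark matches to the cell cycle genes homology region (CHR, TTTGAA or TTCGAA on either strand, TTCAAA being the reverse complement of the former) and, for CycA, to the DNA replication-related element (DRE, TATCGATA, a palindrome). The windows were chr3R:11962875-11963075 (plus strand) for aurA, chr2L:10386394-10386594 (minus strand) for Cdk1, chr2L:15746923-15747123 (minus strand) for the stronger CycE summit, chrX:15910079-15910279 (minus strand) for CycD and chr3L:11833579-11833682 (minus strand) for CycA. The CycA window was ended at the transcription start site, and the polo window is not printed because it falls within annotated 5′ UTR.
aurA: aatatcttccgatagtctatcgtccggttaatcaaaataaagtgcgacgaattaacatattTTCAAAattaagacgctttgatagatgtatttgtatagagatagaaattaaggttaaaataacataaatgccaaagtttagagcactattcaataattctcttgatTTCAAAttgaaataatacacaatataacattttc
Cdk1: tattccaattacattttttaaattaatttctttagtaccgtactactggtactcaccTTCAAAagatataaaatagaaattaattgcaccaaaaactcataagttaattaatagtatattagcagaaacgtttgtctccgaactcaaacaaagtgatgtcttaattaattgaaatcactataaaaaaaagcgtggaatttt
CycE: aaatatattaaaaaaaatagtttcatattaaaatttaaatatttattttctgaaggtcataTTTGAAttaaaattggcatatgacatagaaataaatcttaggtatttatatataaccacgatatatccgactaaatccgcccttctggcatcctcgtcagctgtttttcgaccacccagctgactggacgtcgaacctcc
CycD: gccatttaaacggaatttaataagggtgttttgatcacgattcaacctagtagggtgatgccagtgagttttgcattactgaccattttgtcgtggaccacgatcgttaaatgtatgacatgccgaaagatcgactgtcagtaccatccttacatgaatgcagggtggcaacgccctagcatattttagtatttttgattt
CycA: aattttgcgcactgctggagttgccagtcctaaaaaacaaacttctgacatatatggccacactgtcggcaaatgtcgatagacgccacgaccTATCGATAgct

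Of the 10 genes, 6 had a reproducible Mam-GFP summit within 1000 bp of a transcription start site (TSS), led by the mitotic kinases aurA and polo, and 4 did not. Such a summit is called a promoter summit here, and the promoter location class used further on is narrower, 500 bp. The authors deposited 5326 reproducible peaks, kept by the irreproducible discovery rate (IDR) procedure, which retains peaks ranked alike in replicates. They were the 5326 strongest of 24073 peaks called on the pooled replicates, and the weakest of them had a signal of 110. Signal is the authors' height of a peak and its scaling is not stated, so replicates are compared by rank and by the threshold of each list, not by signal. The 6 of 10 were CycB, CycD, CycE, Cdk1, polo and aurA, against 29.7% of all protein-coding genes. By the narrower class they were 5, without CycD, and the Cdk1 summit was nearer to the TSS of another gene. CycA, stg, aurB and dap had none. In the full pooled list, which also holds background calls, 9 of the 10 had such a summit, all but stg, against 58.9% of all genes. No test was run on these counts, because the genes were picked with results of these data known.

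Reproducible peaks within the transcribed gene were fewer and were the promoter peaks again. A reproducible summit lay in the gene body of 2 of the 10 genes, CycE and polo, against 13.4% of all genes, and each of these summits was also within 1000 bp of a TSS of that gene. Pooled summits lay in the body of 5 of the 10, CycE, stg, polo, aurB and dap, against 39.8% of all genes. The genes spanned 1298 bp for aurB to 20570 bp for CycE, and the chance of holding a summit grows with length. By location class, with promoter defined as within 500 bp of a TSS, 5 of the 7 reproducible summits were promoter, 1 intronic (CycE) and 1 intergenic (CycD). Over all 5326 reproducible summits the promoter share was 54.6%, the intron share 31.2% and the intergenic share 12.9%.

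The replicates gave nearly the same set of genes. Each replicate list holds peaks and background, 30000, 24267 and 24306 peaks in replicates 1, 2 and 3, so the 5326 strongest of each were used. With these, 7 of the 10 genes had a strong summit within 1000 bp of a TSS in replicate 1, 6 in replicate 2 and 6 in replicate 3, a mean of 6.33 ± 0.577 (SD, n = 3). All protein-coding genes gave 28.4%, 29.8% and 30.2%. The 6 genes with a reproducible summit were in the set in every replicate, and CycA was the addition in replicate 1. All 7 reproducible peaks of these genes were overlapped by at least 1 bp by a strong peak in 3 of 3 replicates. Both kinds of agreement were partly built in, because the IDR procedure kept peaks ranked alike in these same replicates. The nearest summit of any overlapping replicate peak, strong or not, lay 0 to 33 bp away, with a median of 9 bp over 21 pairs. At CycE these included calls outside the 5326 strongest, at rank 5883 in replicate 2 and rank 16619 in replicate 1.

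The cyclin genes fell on either side of the threshold, with CycB, CycD and CycE above it and CycA just below. CycB encodes the cyclin that activates Cdk1 for mitosis. Its reproducible peak on chromosome 2R (22806830 to 22807225) had its summit at 22807028, 80 bp upstream of the outermost of 3 TSSs, with a pooled signal of 182 and rank 2894. In replicates 1, 2 and 3 the signal there was 67.6, 59.4 and 45.6, and all 3 values were above the signal of the 5326th peak of their own list, which was 41.02, 35.7 and 38.9. By rank the peak stood at 2614, 2921 and 4425, lowest in replicate 3. The summit also lay 832 bp from the TSS of stl, a divergent neighbour that encodes a secreted metalloprotease-like protein.

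CycD encodes the partner of Cdk4 that promotes growth and G1 progression. Its reproducible peak on X (15909981 to 15910376) had a signal of 179 and rank 2975, and its summit at 15910179 lay 503 bp upstream of the only TSS, in intergenic sequence. The signal in replicates 1, 2 and 3 was 42.8, 59.5 and 77.4. By rank it stood at 5022, 2910 and 2273, lowest in replicate 1, where it was only just inside the 5326 strongest. The replicate summits lay 484, 495 and 494 bp from the TSS and so were classed as promoter, while the pooled summit missed that class by a few bases. The divergent gene Lrp4, which encodes an LDL receptor-related protein, starts 691 bp from the summit.

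CycE encodes the cyclin that activates Cdk2 for entry into DNA replication, and it was the only one of the 10 genes with a pair of reproducible summits. The gene on 2L has 3 TSSs and the summits lay upstream of the middle one, inside an intron of transcripts from the outermost one. The stronger, at 15747023, had a signal of 129.6 and rank 4431 and was 413 bp from that TSS. The other, at 15747249, had a signal of 122 and rank 4729 and was 639 bp from it, and the peaks (15746825 to 15747220 and 15747051 to 15747446) overlapped. At the former the replicates gave 43.1, 32.6 and 54.3, and at the latter 20.2, 38.6 and 56.9. Replicate 1 was thus higher at the summit nearer the TSS and replicates 2 and 3 at the farther one. The 32.6 of replicate 2 and the 20.2 of replicate 1 were below the threshold signals of their lists. With an overlap of at least 50% of the peak required, the support of each CycE peak fell to 2 replicates, while that of the other 5 peaks stayed at 3. Of non-coding genes, asRNA:CR44866 and lncRNA:CR44974 start within 1000 bp of these summits.

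CycA encodes a mitotic cyclin required for division after the early cycles. Its pooled summit on 3L at 11833582 was 4 bp upstream of the TSS, with a signal of 108 and rank 5478, just under the lowest reproducible signal of 110. The replicates gave 41.3, 25.2 and 38.1. Replicate 1 placed it at rank 5282, within its 5326 strongest, and replicate 3 at rank 5453, just outside, while replicate 2 placed it at rank 7692. The absence of CycA from the reproducible set was therefore a near miss, unlike that of aurB, dap and stg, which ranked lower.

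**Figure D1:**
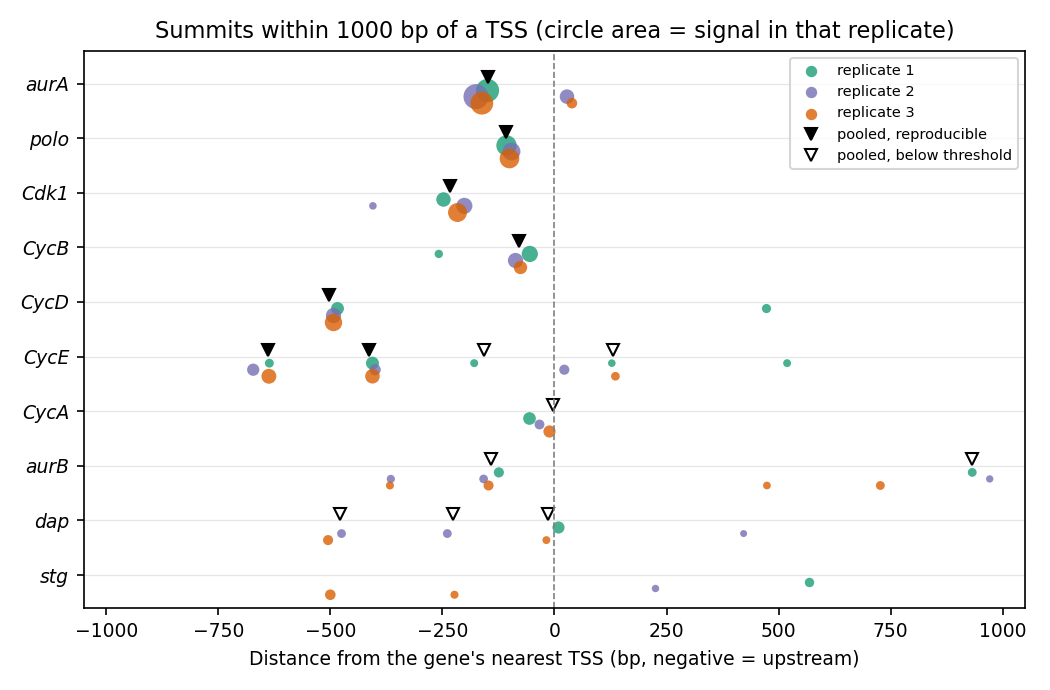
Summits within 1000 bp of a TSS for the 10 genes, ordered by pooled signal. The horizontal axis gives the distance in bp from the nearest TSS of the gene (negative is upstream), circle area is the signal in each replicate, and triangles mark pooled summits, filled where reproducible. The largest circles of aurA, polo, Cdk1, CycB and CycD sit under 1 filled triangle each and upstream of the TSS. A further aurA call lies 28 bp downstream in replicate 2 with a signal of 54.2, and CycE has 2 filled triangles at 413 and 639 bp. The circles of aurB, dap and stg are small. The strongest of aurB lie 124, 158 and 147 bp upstream in replicates 1, 2 and 3, while those of dap and stg are spread.

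Cdk1, the kinase that drives mitosis, carried a peak that it shares with a neighbour. The reproducible peak on 2L (10386296 to 10386691) had a signal of 213 and rank 2374, with its summit at 10386494. The signal in replicates 1, 2 and 3 was 53.6, 66.6 and 91.7, at ranks 3642, 2490 and 1816, all above the threshold signals of their lists. The summit lay 232 bp upstream of the Cdk1 TSS but 168 bp from that of mRpS7, a divergent gene for a mitochondrial ribosomal protein, so Cdk1 has no reproducible summit when each summit is given to its nearest TSS alone.

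The gene stg, which encodes the Cdc25-type phosphatase String, was the only one of the 10 with no pooled summit within 1000 bp of a TSS. Its pooled summits were 4, all inside the gene body on 3R, and the strongest had a signal of 67.2 and rank 9313 in coding sequence. There replicate 1 gave 32.2, replicate 3 gave 23.6 and replicate 2 listed no overlapping peak. That pooled summit lay 2665 bp from the nearest stg TSS and was nearer to a TSS of SP1029, at 2209 bp. Replicate lists did hold weak promoter calls. The strongest within 1000 bp had signals of 22.7, 14.1 and 28.8 in replicates 1, 2 and 3, at 567, 224 and 500 bp from a TSS. These were below the threshold signals of all 3 lists, lay at different positions, and that of replicate 3 was nearer to the TSS of CG45544, at 185 bp. Replicate 3 had a weaker call (16.8) at 29255548, near the 29255576 of replicate 2.

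Of the mitotic kinases, aurA and polo had the strongest promoter peaks of the 10 genes, and aurB was below the threshold. Aurora A, the product of aurA, acts at centrosomes and spindle poles. Its reproducible peak on 3R (11962875 to 11963056) had a signal of 428 and rank 775, with the summit at 11962975. The replicates gave 138, 160.5 and 133, at ranks 790, 609 and 982, ahead of the other 9 genes in each list. The summit lay 149 bp upstream of the aurA TSS and 170 bp from that of the divergent gene CG3281. In replicates 2 and 3 it was nearer to CG3281, at 144 and 157 bp, than to aurA, at 175 and 162 bp, so the peak is shared as at Cdk1. A share of 6.34% ± 1.33 (SD, n = 3) of all protein-coding genes had a higher promoter signal in a replicate.

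The gene polo encodes the founding Polo-like kinase. Its peak on 3L (20309857 to 20309955) was 99 bp wide in the pooled call but 396, 380 and 384 bp in the replicates, with a signal of 290.4 and rank 1511, and the summit at 20309938 lay between its 2 TSSs, 284 bp downstream of the outer and 109 bp upstream of the inner. The replicates gave 106, 81.8 and 99.0, second to aurA in each list. Its ranks were 1267, 1912 and 1599. In a replicate, 11.7% ± 2.49 (SD, n = 3) of all genes had a higher promoter signal.

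Aurora B, the product of aurB, is the kinase of the chromosomal passenger complex. Its strongest pooled promoter summit, on 2L at 10858236, was 142 bp upstream of the TSS and 300 bp from that of the divergent gene Stam, with a signal of 83.3 and rank 7289. The replicates gave 26.4, 19.4 and 25.8, all below the threshold signals of their lists. Its ranks of 8641 to 10723 in the replicate lists did not overlap those of aurA, 609 to 982.

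The inhibitor gene dap encodes the CIP/KIP-family protein that restrains the CycE-bound kinase. It had 3 pooled promoter summits on 2R, 479, 227 and 14 bp upstream of the TSS, with signals of 59.7, 42.2 and 55.4. In replicates 1, 2 and 3 its strongest promoter signal was 37.6, 20.0 and 26.1. These came from different places, 7 bp from the TSS in replicate 1, 239 bp in replicate 2 and 505 bp in replicate 3, and none reached the threshold signal of its list. Weaker calls lay closer together. Replicate 2 had a nearly equal call (19.9) 475 bp from the TSS, near the strongest of replicate 3, and replicate 3 had a call of 16.1 at 18 bp, near that of replicate 1. Replicate 1, at rank 6001, was the nearest to it.

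The order of the genes was fixed for aurA, polo and CycA and varied for the rest. Within each list, the rank of the strongest promoter summit was expressed as a percent of the list, small values being strong, and its mean over replicates was 3.06 ± 0.850 (SD, n = 3) for aurA, 6.23 ± 1.85 for polo and 9.96 ± 2.35 for Cdk1. CycD gave 12.7 ± 3.74, CycB 13.0 ± 4.82 and CycE 16.9 ± 3.16. CycA gave 23.9 ± 7.16, dap 32.5 ± 11.4, aurB 38.1 ± 5.27 and stg 50.1 ± 22.0. The genes aurA, polo and CycA held places 1, 2 and 7 in all 3 replicates. The values of aurA (2.51 to 4.04) did not overlap those of polo (4.22 to 7.88). The highest of polo just passed the lowest of Cdk1 (7.47), and Cdk1, CycD, CycB and CycE overlapped one another in turn and their order changed between replicates, as did that of dap, aurB and stg. Replicate lists differ in length, and whether the 30000 peaks of replicate 1 reflect a set maximum is not stated, which bears on these percents and their SDs, and the share of genes with a higher promoter signal, given for aurA and polo, does not use the list's length.

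**Figure D2:**
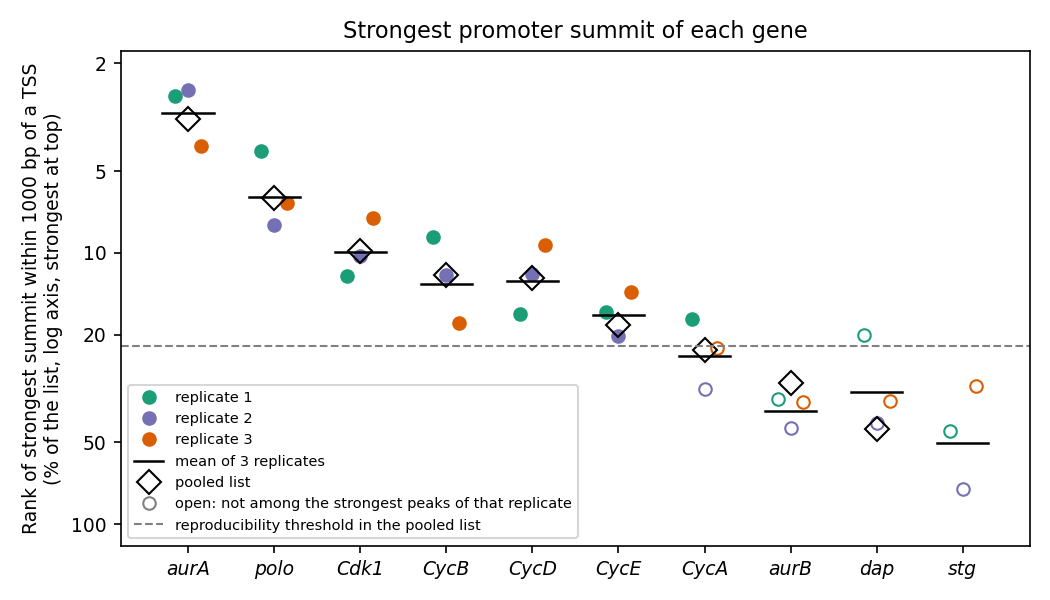
Rank of the strongest summit within 1000 bp of a TSS, as percent of the list on a log axis with the strongest at the top. Circles are the 3 replicates, filled where among the 5326 strongest peaks of that replicate (up to 17.8%, 21.9% and 21.9% of the lists), bars are their mean, open diamonds the pooled list, and the dashed line the 5326th of 24073 pooled peaks. The genes aurA and polo lead in every replicate, CycA is filled in replicate 1 alone, and stg has no diamond because no pooled summit lay near its TSSs.

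Set against all protein-coding genes, the peaks of these genes lay within the usual range of heights. Among genes with a reproducible promoter summit, the strongest signal had a median of 198 over the 6 genes and of 235 over all 4145, and the 6 ranged from 129.6 to 428. In the pooled list 6.19% of all genes had a higher promoter signal than aurA, 11.2% than polo and 16.5% than Cdk1. The values were 19.2% for CycB, 19.7% for CycD, 26.2% for CycE and 30.4% for CycA. They were 36.2% for aurB and 43.4% for dap. The strongest summit also lay within 1000 bp of another protein-coding gene's TSS in 4 of the 6 genes (66.7%) and in 2659 of 4145 genes (64.1%).

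**Figure D3:**
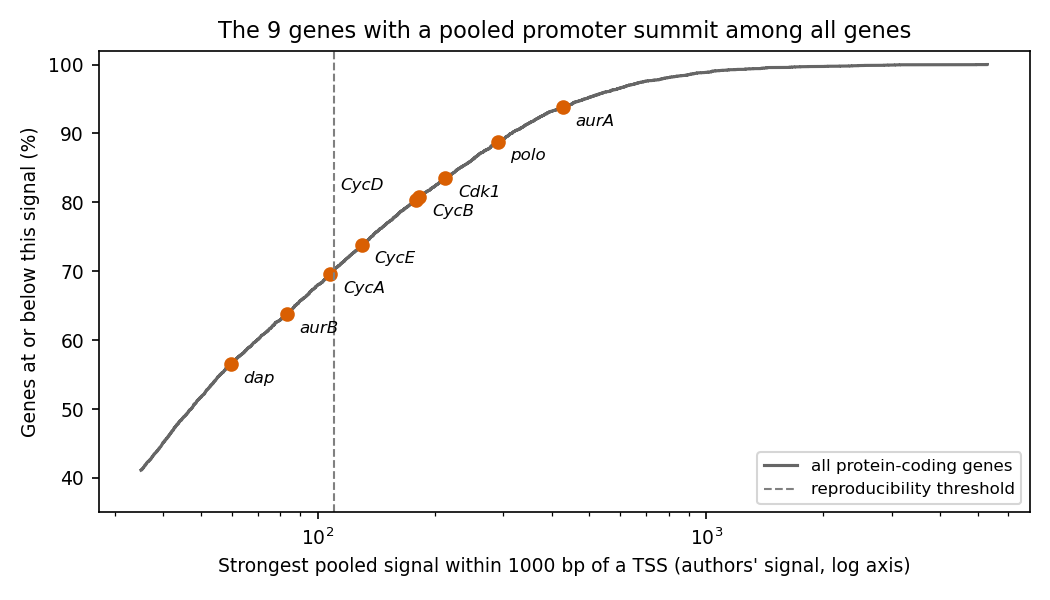
Share of all 13968 protein-coding genes at or below a given strongest pooled signal within 1000 bp of a TSS (log axis); genes without a pooled summit make up the share below the start of the curve. Points are the 9 genes with a pooled promoter summit, and the dashed line is the lowest reproducible signal, 110. Of the 9 points, 6 lie to its right, and CycA at 108 lies next to it.

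The sequence under the summits held CHR matches at most of these genes and few other motifs. Within 100 bp of the summit, 6 of the 7 reproducible summits held TTTGAA or TTCGAA on either strand, all but that of CycD, against 37.9% of all 5326 reproducible summits. Within 50 bp there were 4 of 7 against 20.9%, and within 200 bp 7 of 7 against 57.2%. The overlapping CycE peaks were counted separately, though within 200 bp their windows share a match. Motif distances here and below run from the summit to the match base with the lowest chromosome coordinate, whatever the strand of the gene. Differences of a few bases therefore depend on the end measured. By this measure the nearest match was at polo, 11 bp away, with 34 bp at CycE, 38 bp at Cdk1, 39 bp at aurA and 98 bp at CycB. The windows ranged in G and C content from 25.9% at Cdk1 and 26.4% at aurA to 42.3% at polo, beside a median of 36.3% over all reproducible summits, and the part of base composition in the count was not tested.

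Of the other motifs, searched on both strands in the same windows, a single match was found, the motif 1 core GGTCACAC at CycB, 81 bp from the summit, a motif held by 3.15% of all reproducible summits. It did not overlap the CHR match of that window. None of the 7 summits held DRE (TATCGATA, 5.82% of all) or E2F letters (TTTGGCGC or TTTCGCGC, 2.16%). None held those of the GAGA factor (GAGAGAG, 3.30%), of Zelda (CAGGTAG, 0.958%) or of the E-box (CACGTG, 2.38%). Su(H) letters (CGTGGGAA, CGTGAGAA, TGTGGGAA or TGTGAGAA) were in 2.33% of all reproducible summits and in 0 of these 7. Within 200 bp, where 4.45% of all held them, TGTGGGAA was found at Cdk1, 193 bp from the summit. The subthreshold CycA summit lay on the last base, as printed, of a TATCGATA, letters held by 2.77% of all pooled summits. A match is a description of the letters, and its absence says only that they are not in that window.

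Among other cell cycle genes, the list of which was likewise drawn up with earlier results known, 38 of 71 (53.5%), in 8 role groups, had a reproducible promoter summit, beside the 29.7% of all genes. The strongest peaks of replicates 1, 2 and 3 gave 34, 39 and 40, a mean of 37.7 ± 3.22 (SD, n = 3). Their median strongest signal, 227 over the 38, lay beside that of 235 over all genes with a reproducible promoter summit. When each summit was given to its nearest TSS alone, 25 of the 71 had one, against 21.3% of all genes.

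The E2F and RB group of transcription regulators had 7 of 8, led by Dp (signal 1038), which encodes the E2F dimer partner, Rbf2 (481), E2f2 (221) and mip130 (195). E2f1, the activating E2F, was the 1 without, at 79.5. The summits of Rbf2, E2f2 and mip130 were each nearer to another gene's TSS, and with nearest TSSs alone the group had 4 of 8. It also had 4 of 8 with the 2663 strongest peaks, as many as the Cdk1 phosphorylation group and beside 18.1% of all genes. Mitotic kinases and phosphatases had 6 of 9, led by SAK (328), the Plk4 kinase of centriole duplication, gwl (261), the Greatwall kinase, and mts (231) and tws (190), both subunits of protein phosphatase 2A. With nearest TSSs alone SAK and mts dropped out, leaving 4, and 3 remained with the 2663 strongest peaks. The spindle checkpoint had 5 of 7, led by Bub3 (399), BubR1 (321), Zw10 (143) and mad2 (133). Without replicate 2, or without replicate 3, it had 2 of 7, beside 24.5% and 24.1% of all genes. Bub1, Zw10 and mad2 were lost each time. With nearest TSSs alone the group had 3 of 7. The anaphase-promoting complex and degradation group had 8 of 18, led by the subunit gene Cdc16 (412), slmb (311), which encodes an F-box protein, Cul1 (254) and Cdc27 (235). With nearest TSSs alone it had 6 of 18, slmb being among those lost.

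Cyclin-dependent kinase partners had 5 of 11, led by Cdk7 (283), Cdk4 (275), CycH (188) and CycG (152). They had 2 of 11 with the 2663 strongest peaks, beside 18.1% of all genes. With nearest TSSs alone Cdk7 dropped out, leaving 4 of 11. Of the group acting on Cdk1 phosphorylation, 4 of 8 had a reproducible summit, and they were the checkpoint kinase genes tefu (459), lok (294), mei-41 (256) and grp (222). The summits of tefu, mei-41 and grp were nearer to another gene's TSS, and lok was the only 1 of the 8 left with nearest TSSs alone. Wee1 and Myt1, whose kinases place the inhibitory phosphate that String removes, and twe, the meiotic counterpart of stg, had none, with pooled signals of 46.5, 42.0 and 54.1. The chromosomal passenger and cytokinesis group, in which aurB acts, had 2 of 5, tum (270.2) and Incenp (261). The centromere group had 1 of 5, Cenp-C (248).

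**Figure D4:**
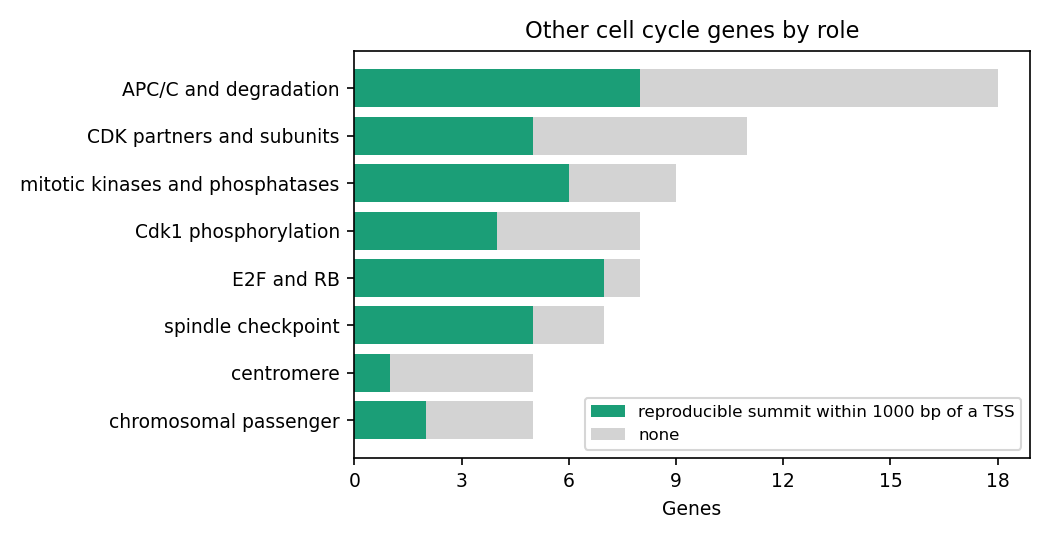
Number of genes in each of 8 role groups of other cell cycle genes, with the coloured part of each bar counting those with a reproducible summit within 1000 bp of a TSS. The E2F and RB bar shows 7 of 8 and the centromere bar 1 of 5. With nearest TSSs alone the E2F and RB count is 4 of 8 and the Cdk1 phosphorylation count 1 of 8 instead of 4.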

How the data were processed

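Mam-GFP ChIP-seq of 3 biological replicates, as the labels number them, was analysed from the authors' dm6 peak lists. Per the labels' descriptions, chromatin was sonicated to 200 to 800 bp and precipitated with anti-GFP antibody, while an antibody tag in the labels reads mam. The authors deposited, per peak, a signal value whose scaling is not stated and a −log10 q-value. Per the notes deposited with the samples, replicate and pooled lists hold peaks plus background for the IDR procedure, and 1 thresholded list was derived from them. No aligner, peak caller or threshold is named in the sources used here. The lists give no read numbers, so depth is unknown and no counting interval can be given.

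Summits were matched to 19630 TSSs of the Ensembl 115 annotation (BDGP6.54), protein-coding genes only, with Python 3.11.15, pandas 2.3.3 and numpy 2.4.6. No peak ended beyond its chromosome arm. Peaks were ranked by signal within each of the 5 lists, since the −log10 q-value reached at most 4.00 and was at that value for all 7 reproducible summits of these genes. Replicates were compared through as many strongest peaks as there are reproducible ones. A peak was supported where a strong replicate peak overlapped it by at least 1 bp. Classes took precedence in the order promoter, 5′ UTR, coding sequence, 3′ UTR, intron, intergenic. The text names all 10 genes, every gene starting within 1000 bp of a reproducible promoter summit of theirs, and up to 4 of each role group with the highest signal; E2f1, Bub1, Wee1, Myt1 and twe were added after their values were seen. Of 72 wider names, 68 matched by symbol and 3 by other case or synonym. The name ald is a synonym of more than 1 gene and was left out. The genes and lists were chosen with earlier results of these data known. The dm3 lists were not used. The matching of positions to TSSs was checked on simulated positions placed at random offsets from annotated TSSs.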

Additional observations from a re-analysis of the deposited data

How the results depend on the processing

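Over the counts reported, 29 alternatives kept within 1.5 times of the reported value and 8 did not. The tally uses raw counts. Its 29 include the member counts of 6 and 2 with a replicate left out, which could not move, and the 5000 bp windows. In a 5000 bp window the share of all genes with a reproducible summit rose from 29.7% to 50.3%. With the 2663 strongest reproducible peaks alone, the members with a promoter summit fell to 3 of 10 (Cdk1, polo and aurA). The wider genes fell to 24, and 18.1% of all genes had such a summit. Members with a gene-body summit fell to 1, beside 7.93% of all genes. The wider count was 25 when a summit went to its nearest TSS alone, beside 21.3% of all genes. Gene-body summits numbered 0 without those near a TSS of the gene (6.41% of all genes) and 4 when any overlap counted (25.8%), CycB and aurB being added. Strong replicate summits averaged 3.33 genes with the 2663 strongest peaks of each replicate. The share of all genes at that setting is not given here, so the 3.33 has no background beside it. With all peaks the average was 10 genes, where all genes gave 63.0%, 58.4% and 58.4% in replicates 1, 2 and 3. A 500 bp window lost CycD (5 of 10, beside 26.2% of all genes) and a 5000 bp window added aurB (7 of 10, beside 50.3%). A 5000 bp window also raised the strongest signal of CycB to 1589, CycE to 322, Cdk1 to 441 and aurB to 128. A promoter class of 1000 bp, an alternative chosen after seeing the data, made all 7 summits promoter. Leaving out each replicate in turn, which kept reproducible peaks overlapped by the strongest peaks of the remaining replicates, gave 6 to 6 members, 31 to 36 wider genes, 2 to 2 gene-body members and 6 to 6.5 strong replicate members. Without replicates 1, 2 and 3, the share of all genes with a promoter summit was 26.4%, 24.5% and 24.1%. For gene-body summits it was 11.5%, 11.3% and 11.1%. Every member peak was overlapped in 3 replicates and the list was called on all of them, so the member counts of 6 and 2 could not move here and show nothing of stability. No paired analysis was possible because the samples form 1 group. Unknown depth, the lack of a control in these values and the mix of stages limit what a low signal can show, and a gene without a reproducible peak is not shown to be unbound.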

Other observations

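The strongest peak in the neighbourhood of the 10 genes lay beyond the 3′ end of CycB, outside the promoter window. It spanned 22802778 to 22803133 on chromosome 2R, with the summit at 22802957, 564 bp past the annotated end of the gene and 3346 bp from the nearest CycB TSS, which was also the nearest TSS of any annotated gene. Its pooled signal of 1589 was rank 53 of 24073, and the replicates gave 586, 508 and 493, at ranks 41, 54 and 68. The CycB promoter peak, by comparison, had 182 in the pooled list and 67.6, 59.4 and 45.6 in the replicates, lower than this peak in each list.

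Other reproducible summits between 1000 and 5000 bp from a TSS of these genes lay at the promoters of neighbours. Near Cdk1 were CG5096 (signal 441, 4160 bp from the Cdk1 TSS) and da (284, 1761 bp), which encodes the bHLH protein Daughterless. Near CycE was ND-B17 (322, 3039 bp), a mitochondrial complex I subunit gene, near polo alphaSnap (149.9, 3569 bp), near aurA CG12213 (201, 4464 bp) and near aurB Dnz1 (128, 1444 bp). CycA, stg and dap had no reproducible summit within 5000 bp of a TSS. For stg the nearest was 18984 bp upstream, an intergenic summit with signal 168 that lay 2324 bp from lncRNA:CR45568, and the replicates gave 78.0, 48.7 and 41.1 there. For dap it was 18699 bp away at the promoter of Uba1 (183), and for CycA 10756 bp away at that of RpL10Ab (166).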
